A study of Mus musculus with 32 samples.

Results

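Transcript levels in E14 mouse embryonic stem cells carrying a hairpin against Chd4 were compared with those in cells of the same labelled line and genotype carrying a control hairpin. The comparison took 4 of the 32 libraries of the series, 2 for each hairpin, and covered the 15499 genes, of 16381 listed in the table of these libraries, whose mean over the 4 libraries was at least 10. The least abundant gene included was Gm6189, with a mean of 10.003, and the most abundant gene left out was Gm31805, with a mean of 9.99. E14 is an established line of pluripotent cells derived from a mouse embryo. Both groups had the genotype CTCF AID, meaning that the cells carried an auxin-inducible degron for the architectural protein CTCF, a tag through which an added auxin brings about destruction of the tagged protein. The culture protocol names a serum-free medium with 1000 U/mL of leukemia inhibitory factor, 1 uM of the MEK inhibitor PD0325901 and 3 uM of the GSK3 inhibitor CHIR99021, and poly(A) RNA was sequenced. The labels of these 4 libraries name the hairpin as the treatment and give no auxin, no hairpin sequence, no time after its introduction and no statement on whether the cells were 1 clone. They do not say either whether the paired libraries came from separate cultures, so each p-value below measures the spread between these libraries, which may be technical.

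CHD4 is an ATP-driven nucleosome remodeller and the main motor subunit of NuRD, a complex that joins remodelling to histone deacetylation. In NuRD it sits with the deacetylases HDAC1 and HDAC2, the histone chaperones RBBP4 and RBBP7, the MTA scaffolds, the MBD2 or MBD3 subunit and the GATAD2 linkers. In embryonic stem cells NuRD is known for holding down genes of other lineages and for tempering the level of pluripotency genes, and CHD4 also acts outside NuRD, with ADNP and HP1 proteins in the ChAHP complex.

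Totals of normalised counts were 19642332 and 19621470 in the control libraries and 18417644 and 18276300 in the Chd4 hairpin libraries. The groups differed in 3 properties of whole libraries. Of the listed genes, 489 and 486 stood at 0 in the control libraries against 14 and 9 in the Chd4 hairpin libraries. Mitochondrially encoded transcripts took 2.56% and 2.53% of the control totals and 5.15% and 4.56% of the Chd4 hairpin totals. Most transcripts of the Y chromosome were at or near 0 in both control libraries and far higher in both Chd4 hairpin libraries. Eif2s3y, a translation initiation factor gene on Y, had 14.7 and 14.8 normalised counts with the control hairpin and 1553 and 1473 with the Chd4 hairpin. Kdm5d, a Y-linked histone demethylase gene, was listed at 0 in both control libraries and at 119 and 117 in the Chd4 hairpin libraries. Of 14 tested genes of chromosome Y, 13 were called at least 2-fold higher, and the median log2 difference of the 14 was 5.65. Gm47283 was not called, at 667 and 720 normalised counts with the control hairpin and 653 and 512 with the Chd4 hairpin. Gm21742 stood at 143 and 112 against 319 and 307. CTCF AID cells of another table of the series, at 0 h of auxin treatment, had Eif2s3y at 1210 and 1242. CTCF AID cells of the serum table, at the same time, had it at 113 and 128, so its level also varied between tables, which were normalised separately. The table of RAD21 AID cells listed neither Eif2s3y nor Kdm5d. The control libraries thus stand apart from the Chd4 hairpin libraries in most of their Y transcripts. A difference between the cells that received the hairpins therefore cannot be told apart from an effect of the hairpin at any gene below. Without the genes of chromosome Y, 5181 genes were called higher and 5245 lower, of which 2706 and 1746 by at least 2-fold.

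The Chd4 transcript was the check of the labels. Chd4 (ENSMUSG00000063870.12, mm10 chromosome 6, 125095981 to 125130591, plus strand) had 9923 and 9526 normalised counts with the control hairpin and 3379 and 3729 with the Chd4 hairpin. Both Chd4 hairpin libraries lay below both control libraries, and the groups did not overlap at 84.4% of all genes tested. The log2 difference, taken throughout on log2(normalised count + 1) as Chd4 hairpin minus control, was -1.45 (SE 0.0578, 95% interval -1.59 to -1.32, limma adjusted p 4.95e-06). In the groups of 3 other tables that were examined Chd4 stood between 9380 and 14914, although those tables were normalised separately.

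Of the 15499 genes, 67.4% passed the threshold of 0.05 on the p-value adjusted by Benjamini and Hochberg, and such genes are named called, higher or lower. The calls were divided into 5194 higher genes (33.5%) and 5245 lower genes (33.8%). A 2-fold difference, meaning a call together with an absolute log2 difference of at least 1, was reached by 28.8% of genes, of which 2719 were higher (17.5%) and 1746 lower (11.3%). With quantile normalisation of the log2 values these last counts were 2143 and 2319, so the excess of large rises over large falls turned with that scaling. Leaving out either Chd4 hairpin library brought the number of higher calls to 3462 or 3458. The libraries of the groups did not overlap at 84.4% of genes. The median absolute log2 difference was 0.57. In 3 other comparisons of the series, fitted in the same way, 17.8% of genes were called after 12 h of CTCF degradation, 17.0% after the same in serum and 13.0% after 12 h of RAD21 degradation. A call with a 2-fold difference was made there at 4.45%, 2.55% and 1.04% of genes.

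**Figure D1:**
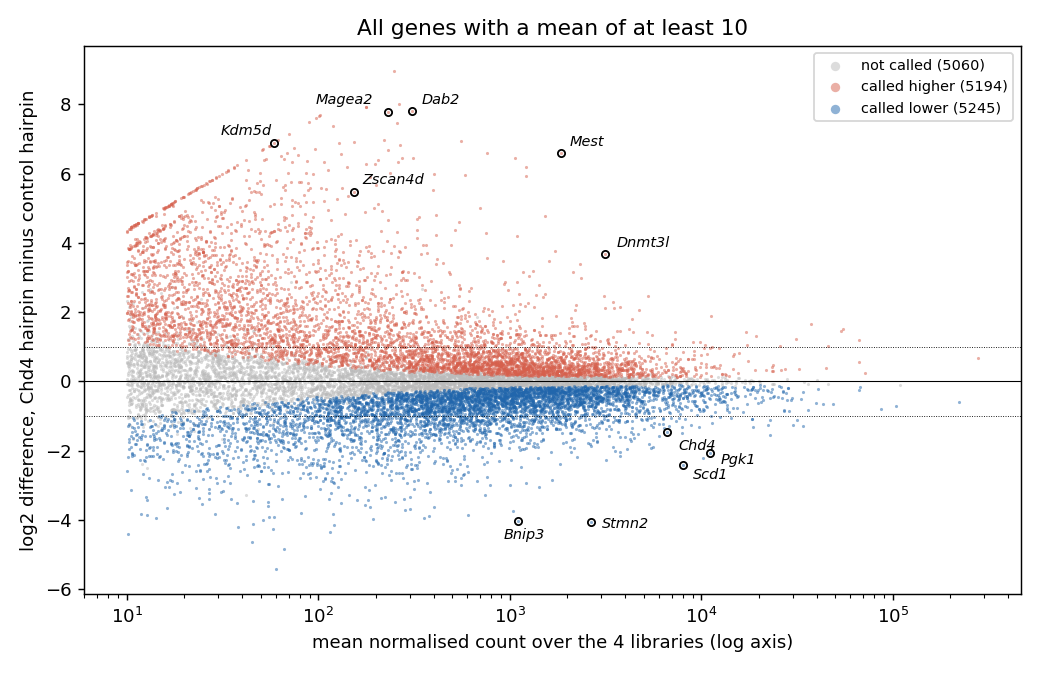
Each point is a gene, with its mean normalised count over the 4 libraries on a log axis and its log2 difference between the Chd4 hairpin and the control hairpin on the other axis, coloured by the limma call. Dotted lines mark a 2-fold difference, and the straight upper edge at low levels is made of genes at or near 0 in the control libraries.

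Large rises were mainly of scarce transcripts. In the lowest quartile of mean level, from 10.003 to 65.2 normalised counts, 38.9% of genes were at least 2-fold higher and 12.2% at least 2-fold lower. In the highest quartile, above 1146, these shares were 3.46% and 6.63%, so that among abundant genes large falls outnumbered large rises. Level is here the mean over the 4 compared libraries, as in the filters, so it is not independent of the difference. A gene near 0 in the control libraries enters only through the Chd4 hairpin libraries. At 596 genes both control libraries had at most 3 normalised counts and both Chd4 hairpin libraries at least 10, and at 20 genes the reverse held. With a mean of at least 100 as the filter, 960 genes were at least 2-fold higher and 1140 at least 2-fold lower. At 255 listed genes both control libraries stood at 0, against 3 genes at 0 in both Chd4 hairpin libraries. Long intergenic non-coding RNAs were at least 2-fold higher at 41.6% and antisense RNAs at 41.2% of tested genes, against 15.7% of protein-coding genes. These classes also have low levels, and the part of level in that difference was not tested.

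NuRD subunit transcripts did not fall together with Chd4. Of 15 tested subunits 5 were called higher, 6 lower and 4 not called, with a median log2 difference of -0.13 against 0.006 over all genes. Among the remodeller ATPases, Chd3, the closest relative of Chd4 in NuRD, had 607 and 689 normalised counts with the control hairpin and 2256 and 2312 with the Chd4 hairpin. The Chd3 groups lay far apart, and the log2 difference was 1.82 (SE 0.0764, limma adjusted p 5.50e-06). Chd5, the third ATPase of this class and mostly known from neurons and testis, had 269 and 309 against 480 and 504, a log2 difference of 0.77 (limma adjusted p 0.00071). The paired deacetylases were called in opposite directions, Hdac1 lower by a log2 difference of -0.41 and Hdac2 higher by 0.40. Of the scaffolds, Mta1 had 2639 and 2740 normalised counts with the control hairpin and 1313 and 1172 with the Chd4 hairpin. Mta1 therefore fell (log2 difference -1.12, limma adjusted p 2.07e-05), whereas Mta2 rose by 0.16 and Mta3 was not called at 0.02. Mbd3, the subunit that stem cell NuRD depends on for assembly, fell by 0.33 on the log2 scale, and the chaperones Rbbp4 and Rbbp7 fell by 0.22 and 0.18. The small changes of Mta2, Rbbp4 and Rbbp7 were not called without a mean trend in the variances, those of Rbbp4 and Rbbp7 also not with quantile normalisation or equal totals, and those of all 3, with that of Mbd3, not in some fits that left out 1 library. Chd4 and Mta1 were the only subunits called at least 2-fold lower, and Chd3 the only one called at least 2-fold higher.

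**Figure D2:**
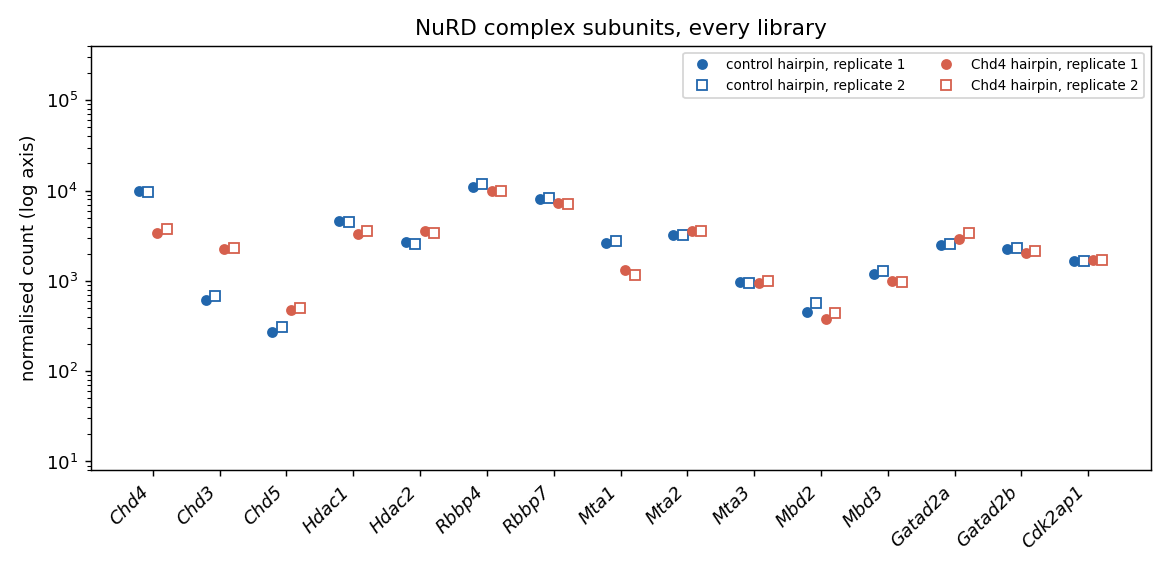
Normalised counts of the 15 NuRD subunits in every library, on a log axis, with blue symbols for the control hairpin and red for the Chd4 hairpin. The libraries separate widely for Chd4, Chd3 and Mta1 and lie close together for most other subunits.

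Transcripts of proteins that work with NuRD or CHD4 were mostly lower. Of 18 partner genes 2 were called higher, 11 lower and 5 not called, and the higher calls were 4 with quantile normalisation and 1 with either Chd4 hairpin library left out. Sall3, a zinc finger protein of the family that recruits NuRD, had 207 and 192 against 39.2 and 30.6 normalised counts (log2 difference -2.49, limma adjusted p 6.58e-05). Its relative Sall1 went from 2948 and 3077 to 1290 and 1325 (-1.20), and Cbx3, an HP1 protein of ChAHP, from 11248 and 11390 to 6600 and 6204 (-0.82). Adnp, the DNA-binding subunit of ChAHP, was one of the 2 that rose, from 1049 and 912 to 1648 and 1786 (log2 difference 0.81, limma adjusted p 0.000192). Among 32 genes of other chromatin remodellers 9 were higher, 10 lower and 13 not called. The largest changes there were rises of alternative ATPases: Smarca1, an ISWI motor, from 151 and 146 to 830 and 774 (log2 difference 2.42), and Smarca2, the second SWI/SNF motor beside Smarca4, from 72.5 and 95.8 to 311 and 265 (1.77).

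Architectural and silencing factors also moved. Of 22 genes of CTCF and cohesin 5 were higher, 13 lower and 4 not called, and 8 were higher with quantile normalisation or equal totals. Ctcf, the gene whose protein carries the degron here, had 4577 and 4568 normalised counts with the control hairpin and 3982 and 3893 with the Chd4 hairpin, a log2 difference of -0.22 (limma adjusted p 0.0038), which was not called with quantile normalisation (-0.10, limma adjusted p 0.0732). Exons of Agrp and Gm5914 lie opposite Ctcf. Ctcfl, the germline paralogue of Ctcf, had 3.38 and 8.30 against 101 and 96.1, a rise of 3.96 on the log2 scale. Of the cohesin subunits Smc1a fell by 0.91 and Rad21 by 0.34 on that scale, and the loader subunit Mau2 rose by 1.33 while Nipbl was not called (0.03). In the Polycomb list 9 of 28 genes were higher and 15 lower, and without Chd4 hairpin replicate 2 the lower calls were 9. Phf19, an accessory factor that guides the complex PRC2, rose from 190 and 229 to 835 and 922 (log2 difference 2.07), and Jarid2, another PRC2 partner, from 2665 and 2937 to 7421 and 7715 (1.44), whereas Phc1 of the complex PRC1 fell from 3774 and 3877 to 1487 and 1577 (-1.32).

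DNA methylation factors changed in both directions, with 5 of 10 called higher and 4 lower. Dnmt3l (ENSMUSG00000000730.13, chromosome 10, 78041947 to 78063622, plus strand), a cofactor without catalytic activity that stimulates the de novo methyltransferases, had 464 and 455 normalised counts with the control hairpin and 5828 and 5862 with the Chd4 hairpin. Replicates agreed closely and the groups were 12.7-fold apart (log2 difference 3.67, SE 0.0528, limma adjusted p 1.07e-06). Dnmt3a and Dnmt3b, the de novo enzymes, rose by 0.97 and 0.53 on the log2 scale. Dnmt1, the maintenance enzyme, fell by 0.56, and Uhrf1, the factor that brings it to replicated DNA, fell from 11585 and 11696 to 4116 and 4178 (log2 difference -1.49, limma adjusted p 1.87e-06). The level of Dnmt3l also varied between other cells of the series: it stood at 6.06 and 9.29 in untreated CTCF AID cells, at 83.2 and 75.9 in untreated RAD21 AID cells and at 5040 and 4937 in untreated CTCF AID cells of the serum table. An exon of Aire lies opposite Dnmt3l.

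The largest single-gene rises were of transcripts almost absent from the control libraries. Dab2 (ENSMUSG00000022150.16, chromosome 15, 6299788 to 6440712, plus strand), an endocytic adaptor and a marker of primitive endoderm, had 1.74 and 1.82 normalised counts with the control hairpin and 613 and 620 with the Chd4 hairpin, a log2 difference of 7.79 (limma adjusted p 2.46e-06). The testis kinase gene Dyrk4 was listed at 0 in both control libraries and at 222 and 182 in the Chd4 hairpin libraries. Of the same kind were Ces2e (180 and 211) and Ces2g (161 and 196), 2 neighbouring carboxylesterase genes, Espnl (133 and 149) and the pseudogene Mageb6-ps (121 and 125), all listed at 0 in both control libraries. Tnnt2, the troponin of heart muscle, went from 0 and 1.04 to 211 and 264. Pramel7 went from 3.53 and 0.865 to 540 and 492, Pramel6 from 2.42 and 2.54 to 430 and 445, and Trim43a from 2.08 and 1.10 to 311 and 297. These last genes belong to families of similar copies that are known from cleavage-stage embryos, and counting could divide reads among the copies. In all, 35 genes had at most 3 normalised counts in both control libraries and at least 100 in both Chd4 hairpin libraries, and 1 gene had the reverse.

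The largest falls started from higher levels. Stmn2 (chromosome 3, 8509360 to 8561606, plus strand), a microtubule regulator known from neurons, fell from 4986 and 4991 normalised counts to 253 and 349 (log2 difference -4.06, SE 0.138, limma adjusted p 3.25e-06). Dhrs7, a short-chain dehydrogenase gene, had 206 and 237 against 11.2 and 8.84 (-4.34), and the galactosidase-like gene Glb1l2 had 101 and 121 against 5.94 and 3.92 (-4.25). Bnip3 (chromosome 7, 138890836 to 138909519, minus strand), a hypoxia-induced gene of mitochondrial turnover, fell from 2051 and 2090 to 123 and 129 (log2 difference -4.03, SE 0.0808, limma adjusted p 1.32e-06). No control value of these genes came near a Chd4 hairpin value. In other tables, normalised separately, untreated CTCF AID cells had Bnip3 at 554 and 588 and untreated RAD21 AID cells at 2289 and 2228. Untreated CTCF AID cells of the serum table had Bnip3 at 1635 and 1652. Armh4 (log2 difference -3.95), the mitochondrial gene Mgarp (-3.99), the cytokine receptor Csf2ra (-3.91), Pdcl2 (-3.91), the initiator caspase gene Casp8 (-3.84) and Bend6 (-3.79) fell to a similar extent. Exons of another gene lie on the opposite strand of Dab2, Glb1l2 and Bnip3, and no source used here says whether counting used strand.

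**Figure D3:**
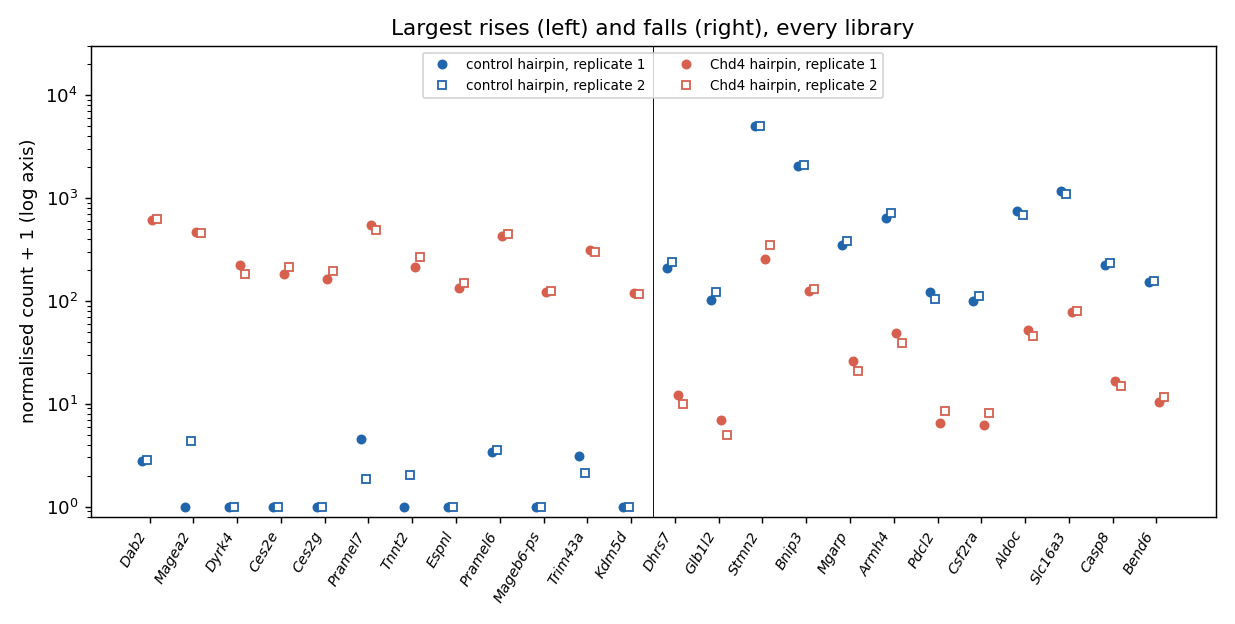
Normalised counts plus 1, on a log axis, in every library for the 12 largest rises (left of the vertical line) and the 12 largest falls (right), among genes that were called, averaged at least 100 in their higher group and have a symbol that is not provisional. The 12 rises start at or near 0 in the control libraries, whereas the 12 falls end at low but measurable levels.

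Among transcripts with a mean of at least 2000, the largest rises after Dnmt3l were Flnc, an actin cross-linker of muscle (420 and 387 to 4150 and 4297, log2 difference 3.38), and Serpine2, a secreted protease inhibitor (422 and 426 to 3511 and 4157, 3.17). Dazl, an RNA-binding protein of germ cells, rose from 1634 and 1587 to 9321 and 8479 (2.46), and Plk2, a kinase gene that responds to p53, from 1219 and 1145 to 5631 and 5898 (2.29). The largest falls after Stmn2 were Scd1, the enzyme that desaturates fatty acids (13500 and 13369 to 2535 and 2507, -2.41), and the metallothionein gene Mt1 (-2.26). They were followed by the lactate dehydrogenase subunit Ldhb (16823 and 16585 to 3331 and 3840, -2.22), Wdr76 (-2.18) and the glucose transporter Slc2a1 (6108 and 6170 to 1414 and 1346, -2.15). All of these kept their direction and call in each alternative that could be computed for them.

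Gene lists were then described by their counts and medians, to be read against 33.5% of all genes called higher, 33.8% called lower and a median of 0.006. At the top stood early embryonic and germline lists, and at the bottom cholesterol synthesis, glycolysis and DNA replication. A list member near 0 in the control libraries was tested only because of its level in the Chd4 hairpin libraries. Where a list holds such members, its count of higher members is partly set by the filter. With the filter at a mean of 100, which tests fewer genes, higher calls fell from 14 to 9 in primitive endoderm, from 15 to 6 in WNT signalling, from 16 to 8 in FGF signalling, from 8 to 3 in mesoderm and from 6 to 2 among Hox genes, and lower calls from 9 to 5 in the neural list.

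**Figure D4:**
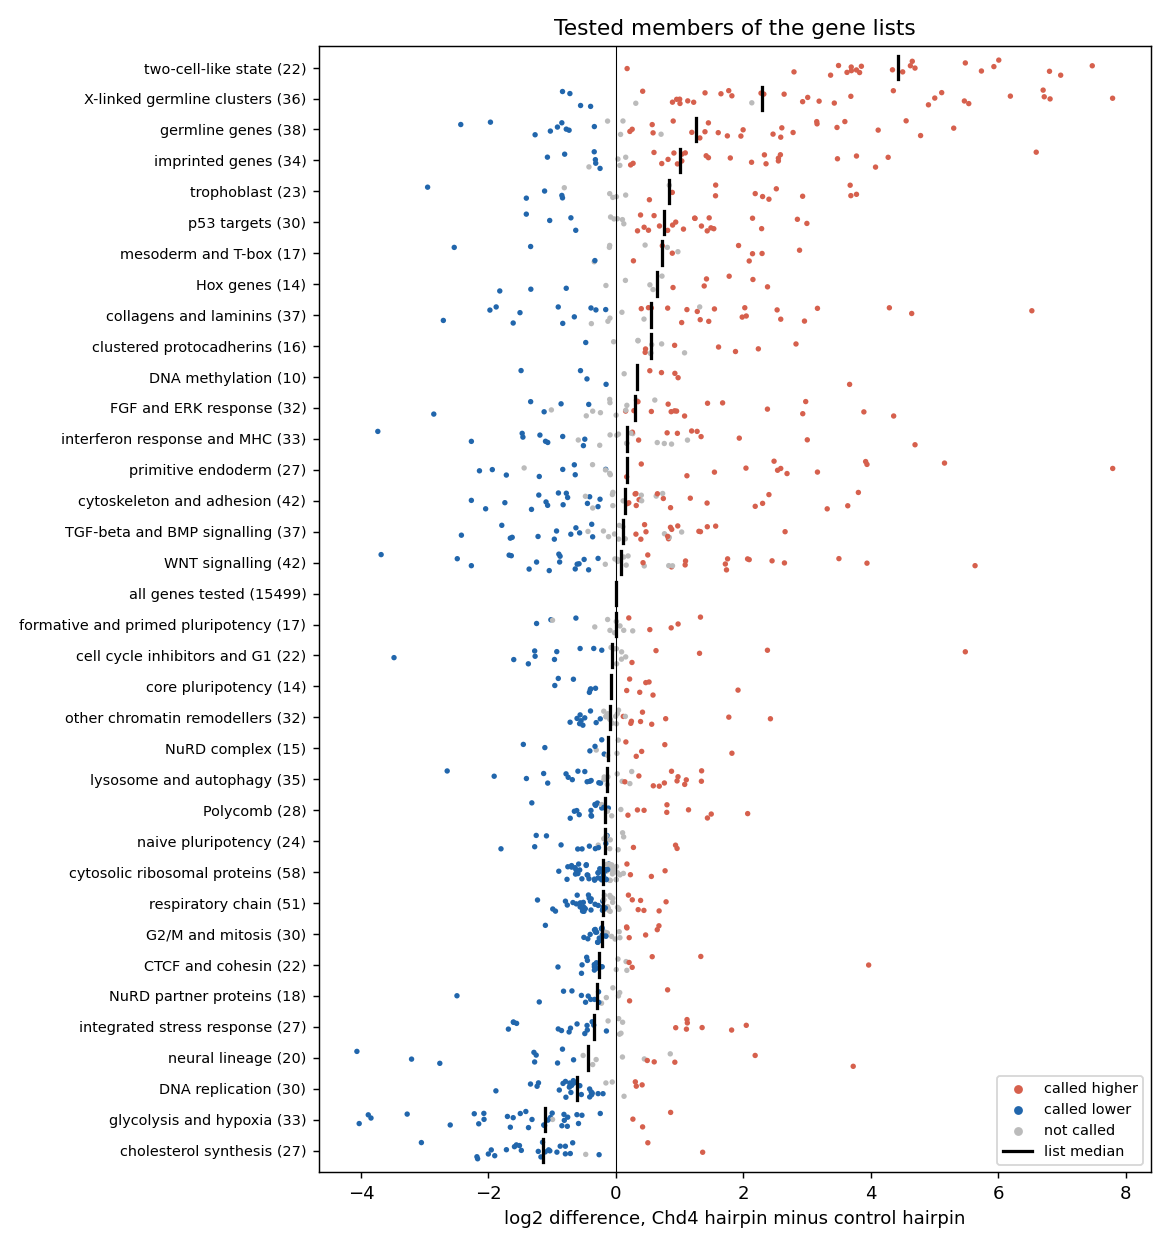
Log2 differences of the tested members of 35 gene lists, each point a gene coloured by its call and each black bar the list's median, with the number tested in brackets. The row for all genes tested shows its median only. The list medians run from 4.42 for the 2-cell-like state to -1.15 for cholesterol synthesis.

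Transcripts of the 2-cell-like state rose as a whole list. Mouse embryonic stem cell cultures hold rare cells that transiently express genes of the embryo's first genome activation, among them the Zscan4 cluster. Of 22 tested members 22 were called higher, 21 of them at least 2-fold, and the median log2 difference was 4.42, or 4.09 where members at 0 in both control libraries were set to a floor of 3. Zscan4d, a zinc finger gene that gives this state its usual marker, had 5.60 and 5.89 normalised counts with the control hairpin and 304 and 296 with the Chd4 hairpin (log2 difference 5.48, SE 0.232, limma adjusted p 5.64e-06). In other tables, normalised separately, untreated CTCF AID cells had Zscan4d at 57.5 and 60.5 and untreated RAD21 AID cells at 15.1 and 22.5. Untreated CTCF AID cells of the serum table had it at 15.9 and 5.30. Gm5662, an eIF1A-like gene of the same programme on chromosome 12, had 38.1 and 38.9 against 2453 and 2356 (5.93). Zscan4f had 21.1 and 52.2 against 407 and 481 (3.69). The groups overlapped at none of these genes, and they did not overlap at 84.4% of all genes tested. The smallest rise was that of Eif1a (0.18, limma adjusted p 0.0285), a gene with 5347 and 5320 normalised counts in the control libraries and 6332 and 5726 in the others, and it was not called in 3 of the 4 fits that left out 1 library. Zscan4, Usp17l and the eIF1A-like genes are near-identical copies, so the division of reads among them is uncertain. Duxf3, which encodes the transcription factor that drives this programme, was not listed, as were Tcstv1, Tdpoz1 and Dub1, while Tcstv3 and Tdpoz3 were listed below the level tested. With a mean of at least 100 as the filter 9 members remained, and 9 were called higher. Both filters use the mean over the 4 compared libraries. Members near 0 in the control libraries, such as Zscan4d, pass them only through the Chd4 hairpin libraries. The counts of higher members are thus partly set by the filter. In bulk RNA, more cells in this state and more RNA per such cell cannot be told apart, here and for the other cell type lists.

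Some of the risen genes lay side by side. Outside chromosome Y, runs of at least 4 neighbouring tested genes that were all at least 2-fold higher numbered 49, the longest with 13. They held 288 of the 2706 such genes. Runs of lower genes numbered 9 and held 37 of 1746, the longest with 5. More genes were higher (17.5% of all tested) than lower (11.3%), which alone makes runs of higher genes more frequent, and its part was not tested. On chromosome Y there was 1 run, of 12 higher genes. The longest run of higher genes was on chromosome 12, from 87480108 to 88324026, with eIF1A-like genes including Gm5662. A run of 9 on chromosome 7, from 10794242 to 11983912, was the Zscan4 cluster. Others held the Mageb genes, the Magea genes (6 genes on X from 154886805 to 155093666), the Fthl17 ferritin-like genes, 2 stretches of the Rhox homeobox cluster, the Tdpoz and Spopfm genes, the Ces2 genes and a run of Tsx, Gm26992, Tsix, Xist and Jpx in the X-inactivation centre. Where a run holds members of 1 gene family, they are similar copies that can share reads, so they are not independent. Xist, the RNA that silences an X chromosome, had 1.98 and 8.35 against 71.5 and 45.1, and its antisense partner Tsix had 52.4 and 32.7 against 1034 and 1044. Exons of Xist and Tsix overlap, so reads of one cannot be assigned without strand. The longest run of lower genes was Acy1, Abhd14a, Abhd14b, Pcbp4 and Parp3 on chromosome 9, and the runs of 4 included Neil2, Gata4, Fam167a and Tdh on chromosome 14 and the glutathione transferases Gstm1 to Gstm4 on chromosome 3.

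Germline genes outside these X-linked clusters rose at 25 of 38 members, 20 of them at least 2-fold, and fell at 9, with a median log2 difference of 1.25. Many such genes are silent in the embryo through promoter methylation and through the repressor complex PRC1.6, whose subunits MGA, MAX and E2F6 recognise E-box and E2F sites. Without Chd4 hairpin replicate 1 the falls numbered 5. Taf7l (chromosome X, 134460118 to 134476490, minus strand), a germ cell form of a general transcription factor subunit, had 115 and 98.6 normalised counts with the control hairpin and 3052 and 2851 with the Chd4 hairpin. The Taf7l groups were 27.5-fold apart (log2 difference 4.78, SE 0.100, limma adjusted p 1.32e-06). Brdt, a testis bromodomain protein, had 8.56 and 15.8 against 245 and 195 (4.11). Piwil2, a piRNA-binding protein, had 104 and 89.9 against 856 and 879 (3.15), and Stra8, the retinoic acid target that opens meiosis, had 142 and 134 against 960 and 943 (2.78). The synaptonemal complex genes Sycp3, Sycp1 and Sycp2 rose by 1.60, 1.45 and 5.30, the last from 8.997 and 0 to 124 and 123. Without Chd4 hairpin replicate 1 Sycp1 and Sycp2 were not called, and without replicate 2 Sycp2 was not. Not all of the list followed: Dmc1, the meiotic recombinase, fell from 331 and 268 to 77.6 and 73.1 (-1.97, limma adjusted p 6.87e-05), and Ddx4, a helicase of the germ granule, fell from 97.4 and 101 to 60.7 and 54.4 (-0.78), with the call lost when either Chd4 hairpin library was left out.

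RefSeq promoter windows, from 250 bases before to 50 after a start on GRCm38.p6, were matched to 35 germline genes by symbol. The E-box CACGTG, which reads alike on both strands, was in 14 of the 35 windows (40.0%), against 10.3% of the 11215 tested genes with a window and 7.15% of all 32851 windows of that table. Windows covered 72.4% of tested genes. Of the 14 genes 10 were called higher, 3 lower and 1 not called, and of the 21 without it 13 were higher, 5 lower and 3 not called, so genes with and without it rose. In the X-linked clusters 1 of 33 windows (3.03%) held it. With a mean of at least 100 the germline share was 29.2% and that of tested genes with a window 11.1%. Shown are the 100 bases before the start, 5′ to 3′ in the direction of the gene with the E-box in capitals, for 5 genes that rose and for Ddx4, which fell, chosen after their values were seen.
Taf7l chrX:134476491-134476590, minus strand: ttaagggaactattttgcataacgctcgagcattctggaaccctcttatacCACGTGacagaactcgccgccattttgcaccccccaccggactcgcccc
Brdt chr5:107331094-107331193, plus strand: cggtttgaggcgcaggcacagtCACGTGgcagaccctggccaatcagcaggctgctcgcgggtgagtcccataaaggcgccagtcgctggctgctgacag
Sycp3 chr10:88459487-88459586, plus strand: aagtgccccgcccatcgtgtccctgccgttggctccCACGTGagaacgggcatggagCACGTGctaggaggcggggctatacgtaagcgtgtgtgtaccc
Sycp1 chr3:102936101-102936200, minus strand: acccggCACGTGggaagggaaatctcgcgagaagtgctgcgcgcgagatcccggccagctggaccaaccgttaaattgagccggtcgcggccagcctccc
Hormad1 chr3:95559577-95559676, plus strand: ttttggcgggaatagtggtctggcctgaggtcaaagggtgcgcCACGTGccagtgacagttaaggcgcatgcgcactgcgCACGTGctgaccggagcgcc
Ddx4 chr13:112652311-112652410, minus strand: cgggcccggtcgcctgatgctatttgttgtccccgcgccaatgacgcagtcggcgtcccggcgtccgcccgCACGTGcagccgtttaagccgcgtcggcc
Sycp3 and Hormad1 (log2 difference 1.19) each have 2 matches in this stretch and the others 1. A match is a description of letters and not a measured binding site.

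X-linked germline clusters rose at 30 of 36 tested members, 26 of them at least 2-fold, with a median log2 difference of 2.30. Members near 0 in the control libraries, such as Magea3 (0 and 0 against 102 and 104), entered only through the Chd4 hairpin libraries. The counts of higher members and the median are thus partly set by the filter. The 4 members that fell did so by less than 2-fold. The Magea genes, cancer-testis antigens normally expressed in the male germline, were called higher at 7 of 7. Magea5 had 17.6 and 14.2 normalised counts with the control hairpin and 729 and 831 with the Chd4 hairpin (log2 difference 5.54, limma adjusted p 3.16e-06), and Magea4 showed the smallest rise of the family, from 87.3 and 83.5 to 153 and 192 (1.00), not called without Chd4 hairpin replicate 2. Of the homeobox genes of the Rhox cluster, Rhox6 went from 52.6 and 44.7 to 662 and 610 (3.69) and Rhox9 from 67.4 and 63.6 to 499.7 and 511 (2.93). Rhox5, a member of the same cluster, went the other way, from 1760 and 1803 to 967 and 1025 (-0.84, limma adjusted p 3.86e-05). Mageb16 (-0.56), Xlr3a (-0.72) and Xlr3b (-0.40) were the other members that fell. Over the 632 tested genes of chromosome X, 27.7% were at least 2-fold higher and the median was 0.17, which became -0.05 with a mean of at least 100 as the filter.

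Imprinted genes, of which the embryo normally expresses the copy from 1 parent, rose at 24 of 34 tested members and fell at 6, with 17 and 1 by at least 2-fold and a median log2 difference of 1.00. Leaving out either Chd4 hairpin library brought the falls to 3. Of 20 paternally expressed members 17 rose and 2 fell, and of 14 maternally expressed members 7 rose and 4 fell. Mest (chromosome 6, 30723547 to 30748465, plus strand), a paternally expressed hydrolase gene, had 42.0 and 32.3 normalised counts with the control hairpin and 3740 and 3562 with the Chd4 hairpin, 96.6-fold apart (log2 difference 6.59, SE 0.137, limma adjusted p 1.32e-06). Its level also varied between other cells of the series, in tables normalised separately. Mest stood at 198 and 253 in untreated CTCF AID cells, at 1282 and 1284 in untreated RAD21 AID cells and at 1266 and 1321 in untreated CTCF AID cells of the serum table. Kcnq1ot1, the long non-coding RNA that silences its imprinted neighbours, had 75.0 and 72.0 against 1509 and 1367 (4.27). Peg10, a retrotransposon-derived gene needed in the placenta, had 273 and 202 against 3279 and 3170 (3.77). On the maternal side Meg3 rose from 3817 and 4169 to 10473 and 10812 (1.42) and H19 from 15.3 and 15.7 to 97.3 and 93.9 (2.55), while Phlda2 (-0.81), Slc22a18 (-1.08), Grb10 (-0.25) and Gnas (-0.34) fell. Both H19 and its paternally expressed neighbour Igf2 (8.69 and 0.626 against 67.2 and 64.3) thus rose, as did Meg3 and its paternally expressed neighbour Dlk1 (2.18 and 1.58 against 38.4 and 24.8). The calls of Igf2, Phlda2, Slc22a18 and Grb10 were lost in at least 1 fit without a Chd4 hairpin library. Exons of another gene lie opposite Mest, Kcnq1ot1 and Meg3.

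Pluripotency transcripts remained abundant at lower summed levels. The core list summed to 94308 and 93893 normalised counts with the control hairpin and 74876 and 73288 with the Chd4 hairpin. The naive list summed to 163453 and 160787 against 116164 and 119224. In the core list 7 of 14 rose and 7 fell, with Dppa2 as the only one past 2-fold. Pou5f1, which encodes OCT4, had 11416 and 11548 normalised counts with the control hairpin and 8862 and 8500 with the Chd4 hairpin (log2 difference -0.40, limma adjusted p 0.000167). Sox2, its DNA-binding partner, had 8861 and 8980 against 4893 and 4637 (-0.90), and Nanog had 19400 and 19129 against 14621 and 14234 (-0.42). All of these remained abundant, and both groups match their labelled cell type by these markers. Of 24 genes of naive pluripotency 3 were higher, 12 lower and 9 not called. Tdh, a threonine-catabolising enzyme of naive cells, fell most, from 8198 and 8436 to 2271 and 2496 (-1.80), and Klf2 fell from 3206 and 3276 to 1407 and 1316 (-1.25). Esrrb was not called, at 11520 and 11362 against 11612 and 11819, with a log2 difference of 0.03. Fbxo15 and Dppa3 rose by 0.96 and 0.93. With values rescaled to equal totals or quantile normalised, 6 of the naive genes were higher. Formative and primed genes showed no common direction, with 5 of 17 higher, 3 lower and 9 not called, and 3 were higher with either Chd4 hairpin library left out. Dppa2, a factor that promotes early embryonic and germline transcripts, had 243 and 246 against 953 and 899.5 (1.92), and Trim28, a co-repressor of retrotransposons and imprinted regions, had 16663 and 16630 against 10506 and 10453 (-0.67).

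Lineage markers were divided by type of product. In primitive endoderm, the layer that forms the yolk sac, 14 of 27 genes rose and 8 fell. The signalling and surface genes of that list rose at 6 of 8, and the transcription factors at 2 of 8, with 4 falling. Pdgfra, the receptor that marks this layer, had 31.1 and 41.4 against 236 and 192 (log2 difference 2.54), and Gata6, its founding factor, had 9.71 and 17.0 against 76.0 and 102 (2.68). Gata4, which acts after Gata6, went from 40.1 and 42.9 to 8.34 and 8.93 (-2.14), and Sox17 from 17.8 and 15.99 to 4.17 and 3.19 (-1.94). Apoe, a secreted lipid carrier counted in the same list, fell from 6488 and 6701 to 1967 and 2036 (-1.72). In the trophoblast list 12 of 23 rose and 5 fell. The placental homeobox gene Esx1 (313 and 354 to 1925 and 1892, 2.52) and the simple-epithelium keratins Krt8 (2.40) and Krt18 (2.30) rose. Gata3, a factor that specifies trophoblast, went from 1.10 and 1.15 to 23.5 and 29.1 (3.67). Its relative Gata2 fell from 89.1 and 105 to 13.2 and 10.2 (-2.96), and Cdx2, Elf5 and Hand1 were not listed.

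Mesoderm and neural lists changed in both directions. Of 17 mesoderm and T-box genes 8 were higher, but 2 and 1 were higher without Chd4 hairpin replicate 1 and 2. Tbx4 had 16.9 and 42.7 against 211 and 199 (log2 difference 2.88), and T, the gene of the primitive streak factor Brachyury, had 29.2 and 11.1 against 91.9 and 70.6 (2.09), and the call of each was lost with either Chd4 hairpin library left out. Of 20 neural genes 5 rose and 9 fell. The cytoskeletal gene Map2 fell from 694 and 686 to 64.5 and 84.5 (-3.21) and Stmn2 fell with it, whereas the neurofilament gene Nefm rose from 122 and 106 to 508 and 535 (2.18). Hox genes were 6 of 14 higher and 3 lower, and 1 was lower without control replicate 2 or with either Chd4 hairpin library left out. Of 5 HoxC genes 4 rose, Hoxc11 most (2.38), and Hoxc4 fell (-1.82). In the gamma protocadherin cluster 7 of 16 were higher, and 3 with either Chd4 hairpin library left out. Markers of other cells that a culture could hold were also examined. Of 13 fibroblast or feeder markers 7 were not listed, among them Col3a1, Dcn and Lum, and 5 were tested, of which 4 were higher, 3 by at least 2-fold, and none lower, with a median log2 difference of 3.75. Their part in the rises of lineage and matrix genes was not tested. Of these, Postn had 0 and 0.673 against 10.5 and 31.8. The summed level of that list was 363 and 281 with the control hairpin and 647 and 716 with the Chd4 hairpin. Of 13 blood markers 9 were not listed, Ptprc and the globins among them, and the sums were 277 and 250 against 173 and 207.

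Matrix and junction genes changed in both directions. Of 13 collagen genes 9 rose and 3 fell, all by at least 2-fold. Col4a2, a chain of basement membrane collagen, had 56.4 and 52.4 against 533 and 458 (log2 difference 3.16), and Col4a1 had 88.7 and 170.0 against 765 and 720.0 (2.59). Col6a1 had 1.89 and 0 against 162 and 150, and Col1a1, also a fibroblast marker, had 10.1 and 3.54 against 167 and 185. Of the other fibroblast markers Thy1 stood at 306 and 233 against 380 and 430, and Pdgfrb was not called. Of 9 laminin genes 6 rose and 3 fell. Epithelial junction genes were divided. Dsc2 rose from 28.9 and 20.8 to 265 and 241 (3.31), while its desmosomal partner Dsg2 fell from 3363 and 3333 to 786 and 835 (-2.04) and the tight junction gene Cldn4 fell from 1663 and 1715 to 371 and 329 (-2.27). Cdh1, which encodes E-cadherin, rose by 0.31. Over the whole list of cytoskeleton and adhesion 17 of 42 were higher and 15 lower, and 11 were higher without Chd4 hairpin replicate 2.

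Signalling lists changed in both directions, and their counts are given by role. Over the 42 tested genes of the WNT list 15 rose and 17 fell, and the median log2 difference of 0.08 became -0.22 with a mean of at least 100 as the filter. Of 15 WNT ligands, secreted growth factors that stabilise beta-catenin, 8 were tested, 5 were listed below the level tested and 2 were not listed. Of the 8, 7 rose and none fell. Wnt7b had 24.9 and 17.5 against 236 and 257 (log2 difference 3.50). Wnt8a was listed at 0 in both control libraries and at 44.1 and 53.6 in the others. Ligands near 0 in the control libraries, such as Wnt8a, entered only through the Chd4 hairpin libraries. The count of higher ligands is thus partly set by the filter. Of 22 WNT receptors and inhibitors 3 rose and 13 fell. Notum, an enzyme that inactivates WNT ligands, fell from 551 and 570 to 56.4 and 32.2 (-3.68), and the receptor Fzd7 from 777 and 778 to 166 and 156 (-2.27). Axin2, a common readout of the pathway, rose from 536 and 570 to 1039 and 986 (0.87). The medium holds a GSK3 inhibitor, which acts downstream of ligand and receptor. In FGF and ERK signalling 16 of 32 were higher and 5 lower, and 8 and 9 were higher without Chd4 hairpin replicate 1 and 2. Fgf4, the main FGF of these cells, fell from 7270 and 7206 to 4006 and 3961 (-0.86), and Fgf1 rose from 4.30 and 5.66 to 121 and 121 (4.36). In TGF-beta and BMP signalling 14 of 37 were higher and 12 lower, and 8 were higher without Chd4 hairpin replicate 1. Nodal, a ligand of early embryos, rose from 591 and 643 to 1563 and 1531 (1.33), whereas the BMP target Id4 fell from 370 and 349 to 68.0 and 64.3 (-2.43).

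Targets of p53 rose at 21 of 30 members and fell at 4, with 12 and 2 by at least 2-fold and a median log2 difference of 0.75. The cell death group was higher at 9 of 11 and lower at none. Mdm2, the ubiquitin ligase that restrains p53, had 3066 and 3155 normalised counts with the control hairpin and 8107 and 7660 with the Chd4 hairpin (log2 difference 1.34, SE 0.0479, limma adjusted p 3.54e-06). Btg2, an anti-proliferative gene, had 1377 and 1411 against 6243 and 6073 (2.14), and Perp, a membrane effector, had 62.7 and 58.9 against 487 and 496 (3.00). Trp53 itself rose from 3130 and 3088 to 4801 and 5188 (0.68). The groups did not overlap at these genes, nor did they at 84.4% of all genes tested. Cdkn1a, which encodes the cell cycle inhibitor p21 and is the best known target, was not called, at 4246 and 4196 against 4051 and 4210 with a log2 difference of -0.03. The repair targets Ddb2 (-1.41) and Rrm2b (-1.04) fell.

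DNA replication genes fell at 24 of 30 members and rose at 3, with a median log2 difference of -0.61, and 4 of the falls were at least 2-fold. Pold1, the catalytic subunit of the lagging strand polymerase, had 1792 and 1709 against 534 and 419.7 (log2 difference -1.88, limma adjusted p 1.97e-05). The ribonucleotide reductase subunit Rrm1 had 6237 and 6170 against 2438 and 2458 (-1.34), and the origin loading factors Cdc6 and Cdt1 fell by 1.24 and 1.22 on the log2 scale. Mcm2, a subunit of the replicative helicase, was among the 3 that rose, from 5959 and 5993 to 7364 and 7545 (0.32). Of 30 genes of G2/M and mitosis 18 fell and 6 rose, with a median log2 difference of -0.22. That count depended on the processing. With quantile normalisation 12 fell and 7 rose, with equal totals 12 fell and 6 rose, and without a mean trend 12 fell and 3 rose. Aurkb, the kinase of the chromosomal passenger complex, was the one gene there past 2-fold (1666 and 1771 to 780.2 and 813, -1.11). Among regulators of G1, 10 of 22 fell and 5 rose, and 3 rose with either Chd4 hairpin library left out. Inhibitors of cyclin-dependent kinases were on both sides of no change: Cdkn2c fell from 108 and 95.1 to 10.7 and 6.18 (-3.48), Cdkn1b from 1559 and 1602 to 694 and 613 (-1.28) and Cdkn2a from 642 and 649 to 283 and 218 (-1.37), while Cdkn1a and Cdkn1c were not called.

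Cholesterol synthesis fell at 24 of 27 members, 17 of them at least 2-fold, with a median log2 difference of -1.15. All 19 enzymes of the pathway that were tested were lower, 14 of them at least 2-fold. Dhcr7, the enzyme of the last step, had 2618 and 2470 normalised counts with the control hairpin and 310 and 301 with the Chd4 hairpin (log2 difference -3.05, SE 0.0685, limma adjusted p 1.32e-06). Of the other enzymes, Mvd fell by 2.18, Sqle by 1.56, Lss by 1.90 and Msmo1 by 2.00 on the log2 scale. The groups did not overlap at any enzyme named here, nor did they at 84.4% of all genes tested. Of the regulators, Srebf2, the transcription factor that drives these enzymes, fell from 6648 and 6555 to 3593 and 3357 (-0.93). Scap, the escort protein of SREBP, rose from 436 and 592 to 1278 and 1334 (1.36), and Insig2 rose by 0.50.

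Glycolysis and hypoxia genes fell at 29 of 33 members, 20 of them at least 2-fold, with a median log2 difference of -1.12, and all 19 of the glycolysis group were lower. Pgk1, the enzyme of the first ATP-yielding step, had 17853 and 17820 normalised counts with the control hairpin and 4082 and 4402 with the Chd4 hairpin (log2 difference -2.07, SE 0.0480, limma adjusted p 1.32e-06). Pfkm, a phosphofructokinase, had 1372 and 1335 against 135 and 142 (-3.28), Aldoc, an aldolase, 752 and 674 against 50.6 and 44.1 (-3.89), and Slc16a3, the lactate exporter, 1171 and 1099 against 76.9 and 79.3 (-3.84). Of the 19, 14 fell by at least 2-fold and 5 by less, among them Gapdh, often used as a constant reference, which went from 72494 and 72514 to 60081 and 62182 (-0.25). Among genes induced by low oxygen Bnip3 fell most and Ndrg1 fell from 1259 and 1327 to 301 and 313 (-2.07), while Ddit4, Kdm3a and Hif1a, the gene of the oxygen-regulated factor itself, rose by 0.86, 0.42 and 0.27. Adm was not called. Exons of another gene lie opposite Slc2a1, Pfkm and Bnip3.

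**Figure D5:**
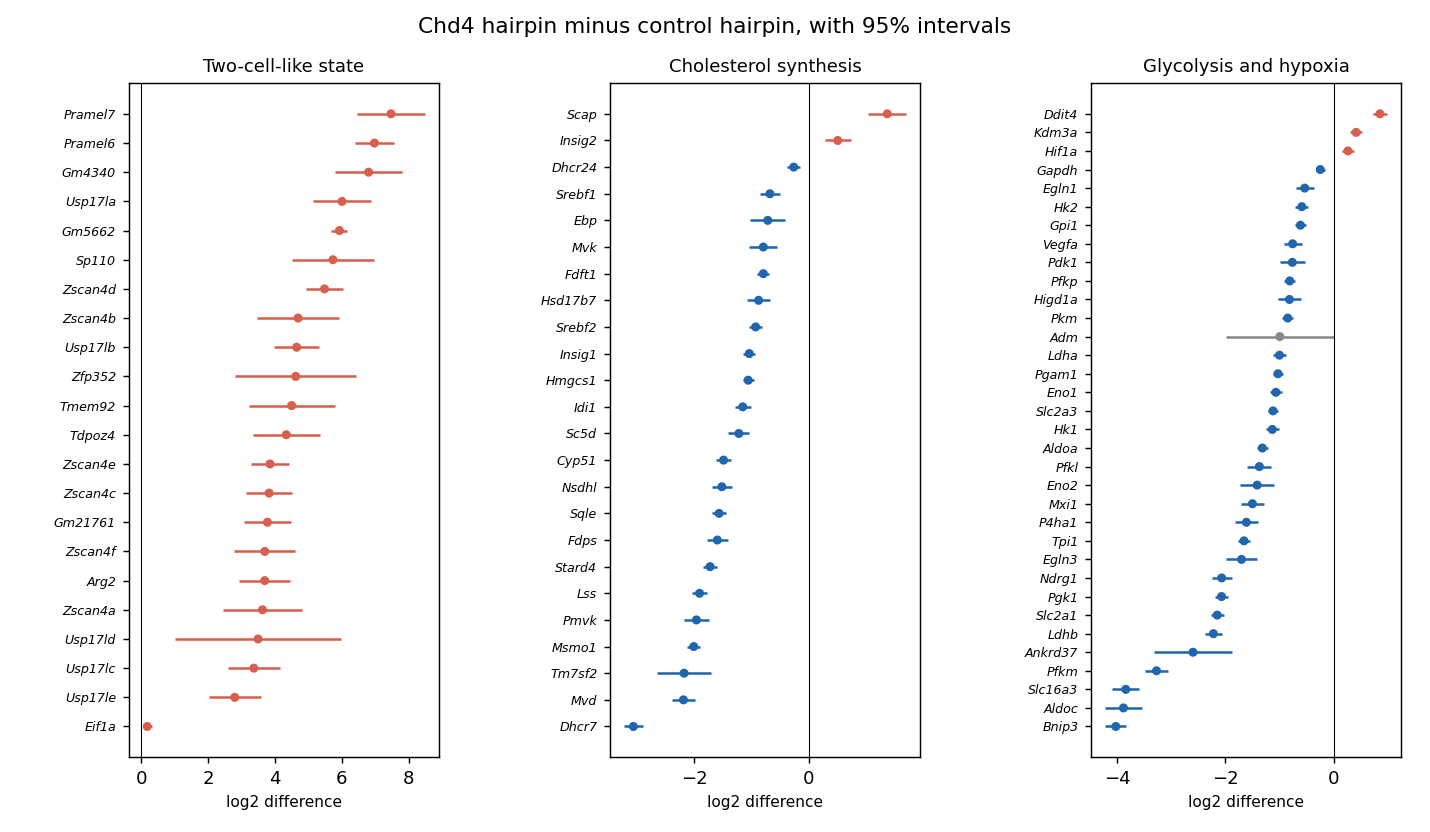
Log2 difference and 95% limma interval of tested members of the 2-cell-like, cholesterol synthesis and glycolysis and hypoxia lists, red for genes called higher, blue for genes called lower and grey for those not called, with 3 members of the cholesterol list not drawn. All 22 members of the first list lie to the right of 0, and most members of the other lists lie to the left of it.

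The sequence ACGTG, the core to which hypoxia-inducible factors bind, was searched on both strands of the promoter windows after the falls of this list were known. It was in 17 of 31 windows of glycolysis and hypoxia genes (54.8%), against 25.5% of the tested genes with a window and 19.6% of all windows of the RefSeq table. Of the 17 genes 15 were lower and 2 higher, and of the 14 without it 12 were lower, 1 higher and 1 not called, so genes fell with and without it. ACGTG is also part of the E-box, and 21 of the 35 germline windows held it, of which 15 belonged to genes that rose and 4 to genes that fell. The share in the X-linked clusters was 18.2%. Shown are the 160 bases before the start, with ACGTG or its reverse complement in capitals, for 3 of the fallen genes, chosen after their values were seen.
Bnip3 chr7:138909507-138909666, minus strand: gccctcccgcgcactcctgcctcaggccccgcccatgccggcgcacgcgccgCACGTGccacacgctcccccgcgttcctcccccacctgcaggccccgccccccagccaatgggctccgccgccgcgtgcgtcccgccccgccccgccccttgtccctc
Slc16a3 chr11:120948907-120949066, plus strand: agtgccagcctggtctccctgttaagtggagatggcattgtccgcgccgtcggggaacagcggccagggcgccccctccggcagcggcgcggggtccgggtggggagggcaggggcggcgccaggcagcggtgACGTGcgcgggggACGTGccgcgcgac
Pgk1 chrX:106186940-106187099, plus strand: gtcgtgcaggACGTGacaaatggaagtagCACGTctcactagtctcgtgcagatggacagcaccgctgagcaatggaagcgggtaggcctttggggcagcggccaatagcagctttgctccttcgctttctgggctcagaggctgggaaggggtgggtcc
In Bnip3 the matches on the 2 strands overlap in an E-box, and in Pgk1 1 match lies on each strand.

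Nuclear and mitochondrial transcripts of respiration differed. Of 51 nuclear genes of the respiratory chain 29 fell and 7 rose, with a median log2 difference of -0.21 and 1 fall past 2-fold. With quantile normalisation 23 fell and 8 rose, with equal totals 23 fell and 7 rose, and without a mean trend 22 fell and 6 rose. Of the transcripts for the 13 proteins encoded in mitochondria 12 rose. That set was chosen after its values were seen. Here mt-Nd1 had 41832 and 39478 against 98263 and 87119 (log2 difference 1.19), mt-Co1 rose by 0.69, mt-Nd4l, whose exon overlaps mt-Nd4, rose by 2.48, and mt-Atp6 was not called at 0.04. Cytosolic ribosomal protein genes fell at 36 of 58 members and rose at 4, none by 2-fold, with a median of -0.20. That count depended on the scaling: with quantile normalisation 20 were lower and 16 higher, and with equal totals 28 were lower and 7 higher. Rpl3 fell most, by 0.90 on the log2 scale, and Rps12 rose by 0.77.

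In the integrated stress response 7 of 27 genes rose and 15 fell. The factor Atf5 rose from 374 and 356 to 1286 and 1285 (log2 difference 1.81) and Atf3 from 49.0 and 77.6 to 236 and 281 (2.04), while Atf4, the central factor of this response, fell by 0.37 on the log2 scale. Its targets in serine synthesis fell, Phgdh from 1810 and 1765 to 629 and 548 (-1.61) and Psph from 578 and 649 to 185 and 194 (-1.69). Interferon and antigen presentation genes were higher at 10 of 33 and lower at 10. Ifitm3, a membrane protein that blocks virus entry and is abundant in stem cells, fell from 1984 and 1901 to 129 and 162 (-3.74, limma adjusted p 2.73e-06), whereas Bst2 rose by 1.93 and the class I histocompatibility gene H2-D1 by 1.27. Of 35 genes of lysosome and autophagy 12 rose and 15 fell, with Lipa, the lysosomal lipase that frees cholesterol, falling from 474 and 437 to 62.5 and 82.5 (-2.65).

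The genes that changed with the Chd4 hairpin were last looked up after degradation of CTCF or RAD21, in tables with other control libraries. Of the 2719 genes at least 2-fold higher, 1630 were tested after 12 h of CTCF degradation. There 39.8% of them had a positive log2 difference against 50.05% of all genes, and 91 were called higher and 169 lower, together 15.95% against 17.8% of all genes. Of the 1746 genes at least 2-fold lower 48.3% were positive. After the same treatment in serum the shares positive were 50.7% and 47.4%, and after 12 h of RAD21 degradation 53.6% and 44.8%. Genes are not independent replicates, so these shares carry no test.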

How the data were processed

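RNA-seq libraries of E14 cells with a Chd4 hairpin (2) and with a control hairpin (2) were taken from the table that holds these 4. Its values are the authors' deposited normalised counts, a signal per gene that is not whole, and reads could not be recovered from it. The submitters' processing notes name Trim Galore, Bowtie2, STAR, RSEM, DESeq2 and the build mm10, without roles, and the scaling is not given in the sources used here, nor is the strand used in counting. Columns that could not be assigned to a sample numbered 0.

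Genes with a mean of at least 10 were tested with limma 3.58.1 in R 4.3.3, with moderated variances and a mean trend, on log2(value + 1), with Benjamini-Hochberg adjustment over all 15499 genes. Called means an adjusted p under 0.05. Fold changes on this scale understate those of scarce genes. With 2 libraries a group, an exact two-sided permutation test of 1 gene cannot go below p = 0.333, so p-values rest on variance shared across genes. On 5 simulated tables of 15504 genes each, made after this comparison, 73.1% of 499 genes changed 2-fold and 98.0% of 498 changed 4-fold were found, and 1.27% of calls were false. In those tables few genes were changed, and the same spread beyond counting noise was set for all genes. In the data 67.4% of genes were called, so these shares do not measure the false calls of this comparison.

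Named genes outside the lists were the 12 largest rises and falls that averaged at least 100 in their higher group and have a symbol that is not provisional, the 6 largest each above an average of 2000, and the 6 smallest adjusted p, and within lists mainly the largest changes. The comparison and the gene lists were chosen with earlier results of these data known. Coordinates are from GENCODE M21 (mm10), matched for 99.9% of identifiers, of which 30.1% of tested genes have an exon opposite another gene. Promoters are RefSeq windows on GRCm38.p6. Alternatives changed the pseudocount, filter, scaling, variance model, threshold and libraries, and used the replicate number as a block. Single values of 3 members of the cholesterol list are not reported here.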

Additional observations from a re-analysis of the deposited data

How the results depend on the processing

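The number of genes called higher, 5194, was 3323 with a mean of at least 100 as the filter and 3458 to 5132 when 1 library was left out, the lone library of a group being assumed to vary like the others. Genes called and at least 2-fold different numbered 2100 with that filter, 960 higher and 1140 lower, fewer genes being tested. The Chd4 log2 difference stayed between -1.52 and -1.32 and was called in every alternative run. With that filter 9 of the 2-cell-like genes were called higher, since 9 were tested, and members near 0 in the control libraries pass it only through the Chd4 hairpin libraries. Ribosomal protein genes called lower numbered 20 with quantile normalisation and 21 without a mean trend, and the cause was not tested. Median log2 differences changed sign with quantile normalisation for the mesoderm and T-box list (-0.012), the Hox genes (-0.062), cytoskeleton and adhesion (-0.057) and the interferon list (-0.072), and with the mean filter for cytoskeleton and adhesion (-0.048) and WNT signalling (-0.22). Medians within 0.1 of no change also turned with quantile normalisation, those of WNT signalling (-0.011), formative and primed genes (-0.079), core pluripotency (0.033), G1 regulators (0.047) and other remodellers (0.003), the last 3 also with equal totals and the formative list also in 3 of the 4 fits without 1 library. Rescaling moved the median of all genes from 0.006 to between -0.031 and 0.104, the latter with equal totals. Without genes that have an exon opposite another gene, an alternative chosen after seeing the data, 1998 genes were at least 2-fold higher and 1273 lower. The planned comparison of promoter CpG content was not run, because 72.4% of tested genes had a promoter window.

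The replicate numbers were shared by the groups, but deviations of same-numbered libraries were not correlated (-0.00967), so they share only a number. With the replicate number as a block 10537 genes were called, 5271 higher and 5266 lower.

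Depth in reads is unknown, so no counting interval is given.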
